A study of Arabidopsis thaliana with 14 samples.

Results

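The genes described here are those of the Arabidopsis thaliana chloroplast genome, measured in whole seedling roots during a time course of iron deficiency. A probe set was a member when the platform annotation paired it with exactly 1 gene and the RefSeq gene table (gene names and order only) gave that gene a locus tag starting with ArthCp, the prefix of the chloroplast genome. The rule used no measured value and found 69 probe sets for 69 genes, among 13513 probe sets paired with 1 gene. They comprised 15 genes of photosystem II, 7 of photosystem I and its assembly, 7 of the cytochrome b6f complex and cytochrome c maturation, 6 of the ATP synthase and 10 of the NADH dehydrogenase-like (NDH) complex. A further 7 genes encoded proteins of the large ribosomal subunit, 8 proteins of the small ribosomal subunit, 5 either subunits of the RNA polymerase or the splicing factor matK, and 4 other proteins. Another 7 chloroplast gene symbols had only probe sets paired with 2 gene entries of the same symbol, and these were not members.

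Columbia seedlings grew for 5 days on standard medium, in which iron was given as Fe(III)-EDTA, and were then moved. The standard group spent 3 h on fresh standard medium. The other 6 groups spent 3, 6, 12, 24, 48 or 72 h on medium in which 0.3 mM Ferrozine, an iron chelator, took the place of the iron salt. Each of the 7 groups had 2 biological replicates of about 320 pooled roots, cut 0.5 mm below the hypocotyl, and each replicate was hybridised to 1 array, 14 in all. No standard sample was harvested at the later times, so hours after transfer and hours without iron cannot be told apart beyond 3 h.

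The chloroplast genome encodes the membrane cores of the photosynthetic complexes, the large subunit of Rubisco, part of the plastid ribosome and the core of a bacterial-type RNA polymerase; nearly all other plastid proteins are encoded in the nucleus. Many of its genes lie in co-transcribed units, and root plastids, which are not green, carry the same genome as leaf chloroplasts but transcribe the photosynthesis genes weakly. Plastid mRNAs as a rule lack the stable poly(A) tails of nuclear mRNAs, whereas one-cycle labelling starts from an oligo(dT) primer. Several members act with iron: the photosystem I core and the NDH complex hold iron-sulfur clusters, and the cytochrome b6f complex and photosystem II hold haem.

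The arrays fell into 2 sets by their control probes. The geometric mean signal of 18 hybridisation control probe sets was 2172 to 3232 on the 10 arrays of the standard to 24 h groups and 378 to 440.0 on the 4 arrays of the 48 h and 72 h groups. A difference between 48 or 72 h and any earlier group therefore cannot be told apart from a difference between these sets of arrays. Among 9 markers of green tissue, 2 had a probe set paired with 1 gene (RCA, Rubisco activase, and LHCB4.1, a light-harvesting protein), and both were above the filter described below. Their summed signal was 614 to 674 on standard medium, 641 to 1120 at 24 h, 122 to 126 at 48 h and 81.2 to 102 at 72 h, and its part in the results below was not tested. Of 3 root hair markers, 2 were measured (EXPA7 and EXPA18). Their summed signal was 2293 to 3345 on standard medium, 1387 to 1598 at 3 h, 1078 to 1385 at 24 h and 185 to 246 at 72 h. Of 3 endodermis markers 1 could be examined, SGN3, at 534 and 536 on the standard arrays and 717 and 688 at 72 h. No marker of the stele or root cap could be examined. In whole roots, fewer cells of a type and less RNA per cell cannot be told apart.

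Signal was the deposited linear MAS5 value, whose mean after trimming 2% at each end was 250.0 on every array. Differences are on the scale log2(signal + 16), where adding 16 understates the change of dim genes, and levels are never compared between genes. Where the signals of a group are given as a pair, replicate 1 comes first. Of the 69 members, 47 lay above a signal filter at the level of 49.6, which removed the lowest 40% of all probe sets by mean log2 signal, and were tested among 13648 probe sets. The members nearest the filter were rpoC2 at 54.3 and psbL at 54.4 inside it, and psbD at 45.6 and rps15 at 43.4 outside it. A member was called when its Benjamini-Hochberg adjusted p in limma was below 0.05, two-sided.

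On iron-deficient medium no plastid-encoded gene passed the test at 3, 6 or 12 h, 3 passed at 24 h, 6 at 48 h and 14 at 72 h. The 24 h calls were a rise of rpoA and rps3 and a fall of rbcL. At 48 h rpoA was again higher, and psbA, psbF, psbJ, rbcL and rpl33 were lower. All 14 members called at 72 h were lower: 6 genes of photosystem II, psaB, petA, petB, atpB, rbcL, rps4, rpl33 and matK. All comparisons with standard medium share the same 2 standard arrays.

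These counts stood against a wide background over all probe sets tested. In the comparisons with standard medium at 3, 6 and 12 h, 0.022%, 0.945% and 2.63% of all tested probe sets were called. For the members, the lowest adjusted p at those times was 0.322, 0.436 and 0.184. At 24 h 3.62% of all tested probe sets were called, 1.61% higher and 2.01% lower. At 48 h the share over all tested probe sets was 31.4% (15.9% higher, 15.6% lower), and 6 of 47 members were called. At 72 h it was 35.9% (18.3% higher, 17.6% lower), and 14 of 47 members were called. The F test over the 6 comparisons with standard medium called 14 members, against 38.8% of all tested probe sets. Counted in either direction, the members' share at 24 h was 6.38%, above the 3.62% of all tested probe sets. It was 12.8% at 48 h, 29.8% at 72 h and 29.8% by the F test, below the share of all tested probe sets these 3 times. The calls at 72 h were all falls, 29.8% of the members against 17.6% of all tested probe sets. None of these differences in share was tested.

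The median log2 difference of the 47 members from standard medium was -0.07 at 3 h, -0.02 at 6 h, -0.04 at 12 h, -0.08 at 24 h, -0.29 at 48 h and -0.48 at 72 h. The median over all tested probe sets lay between 0.01 and 0.07 at these times. At 72 h 37 of 47 members were below 0, against 45.7% of all tested probe sets. Both 72 h arrays lay below both standard arrays for 23 members and above them for 1, where 31.8% and 37.7% of all tested probe sets did so. At 48 h the same held for 19 and 3 members (31.3% and 36.7% of all tested), and at 24 h for 12 and 10 (20.5% and 22.7%). The plot of differences by complex shows that every class but NDH had a member called lower at 72 h. Photosystem II had 6 such calls and the cytochrome class 2, while each other class had 1. In the NDH class 3 of 4 tested genes were also below 0, and the median of the large ribosomal subunit class was 0.10.

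**Figure D1:**
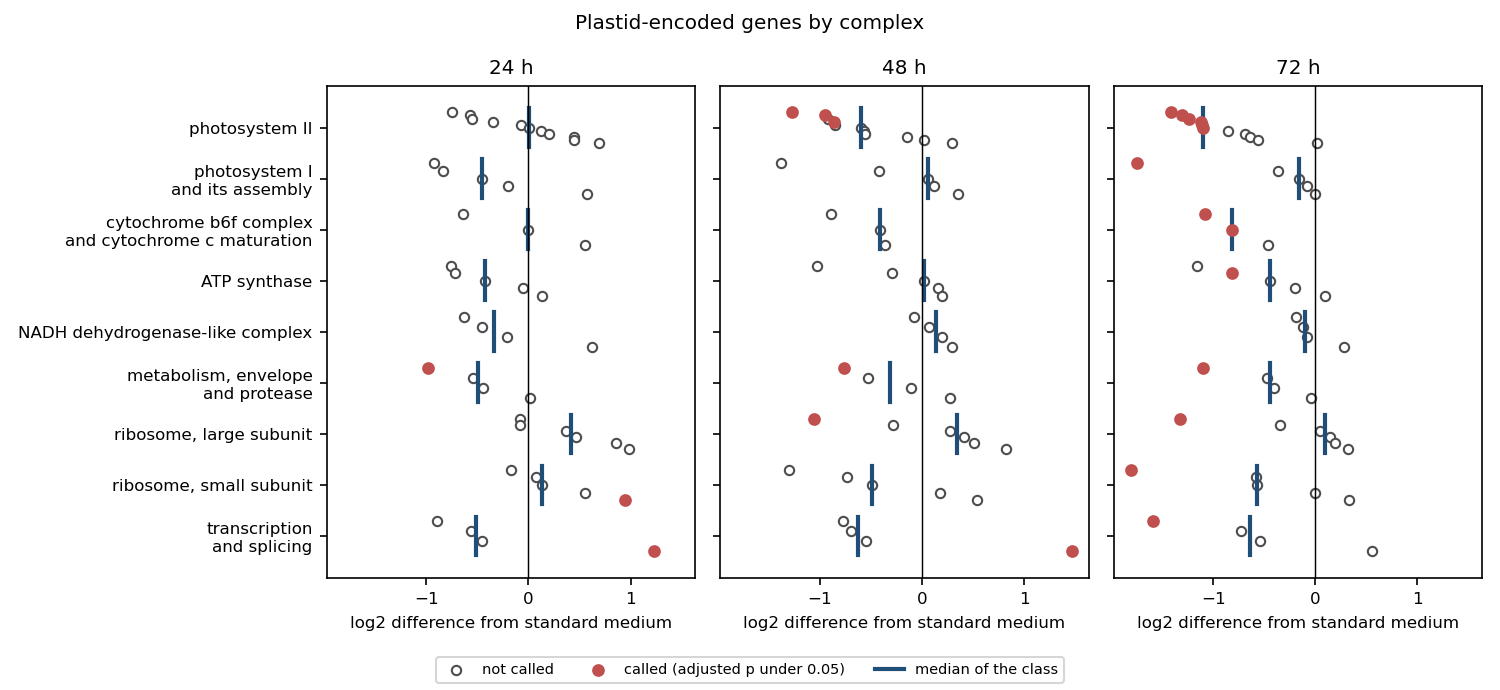
Log2 difference from standard medium (horizontal axis) of the 47 tested plastid-encoded genes at 24, 48 and 72 h without iron, 1 point per gene, by complex (vertical axis); filled red points passed the limma test at adjusted p under 0.05, open points did not, and blue bars are class medians. Photosystem II has a median of 0.00 at 24 h, -0.59 at 48 h and -1.10 at 72 h, while the 4 NDH genes lie between -0.19 and 0.28 at 72 h.

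Between consecutive times, members were called only from 24 h to 48 h, across the 2 sets of arrays. Comparing 6 h with 3 h, 12 h with 6 h and 24 h with 12 h, limma called 0 members each time (0.22%, 0.044% and 0.374% of all tested probe sets). From 24 h to 48 h 6 members fell, psbJ, psbF, rps19, rps3, rpl33 and petA, and none rose (23.7% of all tested probe sets were called, 11.1% higher and 12.7% lower). From 48 h to 72 h, within the later set of arrays, 0 members were called (0.0147% of all tested probe sets). The median difference between those times was -0.22. The difference was below 0 for 42 of 47 members, against 49.0% of all tested probe sets. Both 72 h arrays lay below both 48 h arrays for 16 members (19% of all tested probe sets).

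The calls rested on few arrays and on the settings of the fit. Without standard replicate 1 the count at 24 h was 0 members, at 48 h 3 and at 72 h 5, against 3, 6 and 14 with all arrays. It was 0 at 24 h also without either 24 h array, 3 and 2 at 48 h without 48 h replicate 1 or 2, and 5 at 72 h without 72 h replicate 1. At 48 h it was 10 without either 12 h array. Between 24 h and 48 h, 1 member was called without 24 h replicate 1 or 48 h replicate 1 and 3 without 24 h replicate 2 or 48 h replicate 2. At 12 h 1 member was called without either 12 h array, and 1 between 12 and 24 h without 12 h replicate 1. At 72 h 6 of the 14 members were still called when no probe set was filtered out, 8 when the prior variance had no trend with signal, and 7 with a robust prior. Of 29 calls of single members, 5 held under every alternative tried: psbF, psbJ and rbcL at 72 h, rpoA at 48 h and psbJ between 24 and 48 h.

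The replicates of the plastid-encoded genes stood far apart in the earlier groups. On standard medium 12 of 47 members differed more than 2-fold between replicates, at 3 h 19, at 6 h 15 and at 12 h 24. As shares these were 25.5%, 40.4%, 31.9% and 51.1%, where 2.28%, 1.87%, 2.56% and 2.75% of all tested probe sets differed as much. At 24 h it was 2 members (4.26%, against 0.887%), at 48 h 1 (2.13%, against 0.212%) and at 72 h 0 (0.198% of all tested). The median absolute difference between replicates was 0.60, 0.78, 0.73 and 1.03 on the log2 scale for the members in the first 4 groups, then 0.23, 0.33 and 0.35. Over all tested probe sets it was 0.16 to 0.27 in all 7 groups.

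The difference had a direction. Replicate 1 gave the higher signal in 32 of 47 members on standard medium, 34 at 3 h, 36 at 6 h, 41 at 12 h and 34 at 24 h, but in 10 at 48 h and 7 at 72 h. The median of replicate 1 minus replicate 2 was 0.41, 0.70, 0.49, 1.03, 0.17, -0.27 and -0.33 in that order. Replicate 1 was higher in all of the standard, 3, 6 and 12 h groups for 27 members, or 57.4%, against 8.47% of all tested probe sets. Replicate 2 was higher in all 4 for 5 members (rpl36, psbF, psbE, psbL and psbJ), or 10.6%, against 8.71% of all tested. Of 22 members below the filter, 5 had replicate 1 higher in all 4 groups, as did 1 of 9 nuclear genes for plastid ribosomal proteins.

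**Figure D2:**
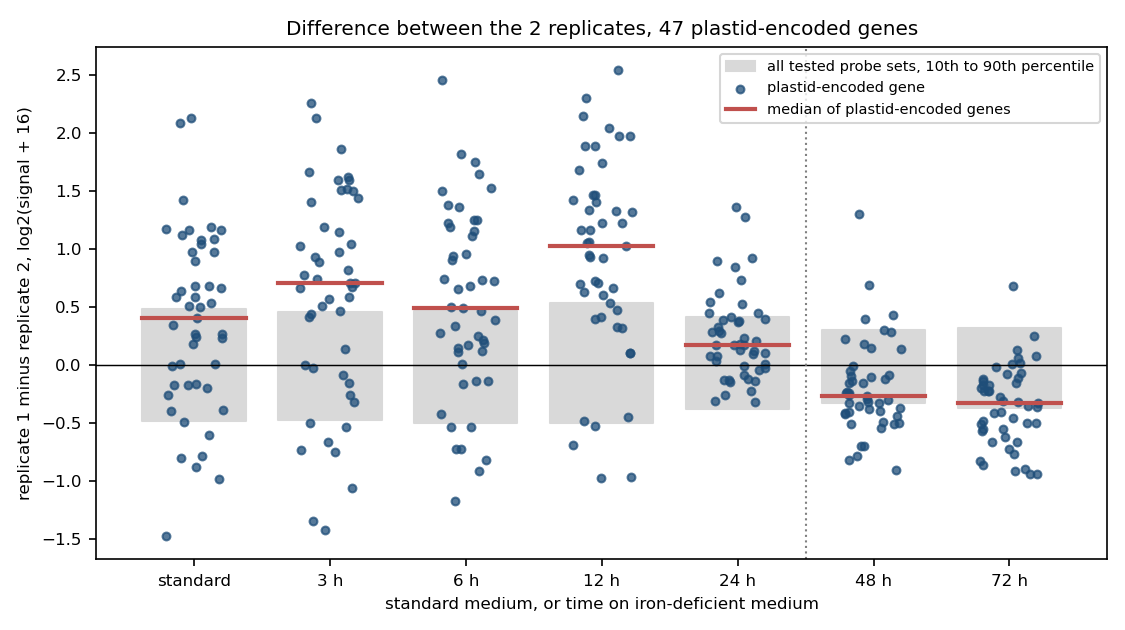
Replicate 1 minus replicate 2 on the log2(signal + 16) scale (vertical axis) for each of the 47 tested plastid-encoded genes (points) in the 7 groups (horizontal axis); red bars are the members' medians, grey boxes span the 10th to 90th percentile of all 13648 tested probe sets, and the dotted line separates the 2 sets of arrays. The median is 0.41 on standard medium, 1.03 at 12 h and -0.33 at 72 h.

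The same genes carried the difference from group to group. Across the 47 members, the replicate differences of the standard, 3, 6 and 12 h groups correlated in pairs at r of 0.63 to 0.76, and over all tested probe sets at 0.05 to 0.15. With 24 h the members' r was 0.15 to 0.27, and that of 48 or 72 h with the earlier groups was -0.17 to 0.12. These correlations are across genes measured on the same arrays and are given as a description. Control signals were compared on the same arrays. The 25S rRNA probe set gave 951 to 1287 on the 5 earlier arrays of replicate 1 and 317 to 758 on the 5 of replicate 2. The ubiquitin 3′ to 5′ signal ratio was higher in replicate 1 in each earlier group except 12 h, where it was 4.06 against 4.78. So was the GAPDH ratio, which at 12 h was 0.651 against 0.697. The actin ratio was lower in replicate 1 on standard medium and at 3 and 24 h and higher at 6 and 12 h, from 5.38 to 14.1 and from 5.46 to 11.5 on the 5 arrays of each replicate. At 48 h and 72 h the 25S rRNA signal was also higher in replicate 1, at 3796 against 1766 and at 2214 against 1286. The part of any of these measures in the replicate difference was not tested.

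The members with the widest replicate gaps came from several complexes. clpP (ArthCp048), the proteolytic subunit of the plastid Clp protease, gave 902 and 429 on standard medium, 1068 and 367 at 3 h, 2006 and 352 at 6 h, 1034 and 267 at 12 h, 584 and 307 at 24 h, 450.1 and 407 at 48 h, and 363 and 541 at 72 h. Replicate 1 was the higher array up to 48 h and the lower at 72 h, and the 6 h arrays lay farthest apart. The signal of ccsA (ArthCp073), which acts in haem attachment to plastid c-type cytochromes, was 619 and 133 on standard medium, 667 and 224 at 3 h, 858 and 288 at 6 h, 670.0 and 240.1 at 12 h, 309.9 and 271 at 24 h, 216 and 232 at 48 h, and 168 and 255 at 72 h. Here replicate 1 exceeded replicate 2 by 1.42 to 2.09 on the log2 scale in the first 4 groups. rpl36 (ArthCp057), a large-subunit ribosomal protein, ran the other way, with 123 and 372 on standard medium, 123 and 337 at 3 h, 127 and 308 at 6 h, 145 and 302 at 12 h, 450.2 and 441 at 24 h, 285 and 347 at 48 h, and 213 and 236 at 72 h. Its replicate 1 minus replicate 2 was -0.98 to -1.47 in those groups, and its 24 h arrays nearly coincided.

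**Figure D3:**
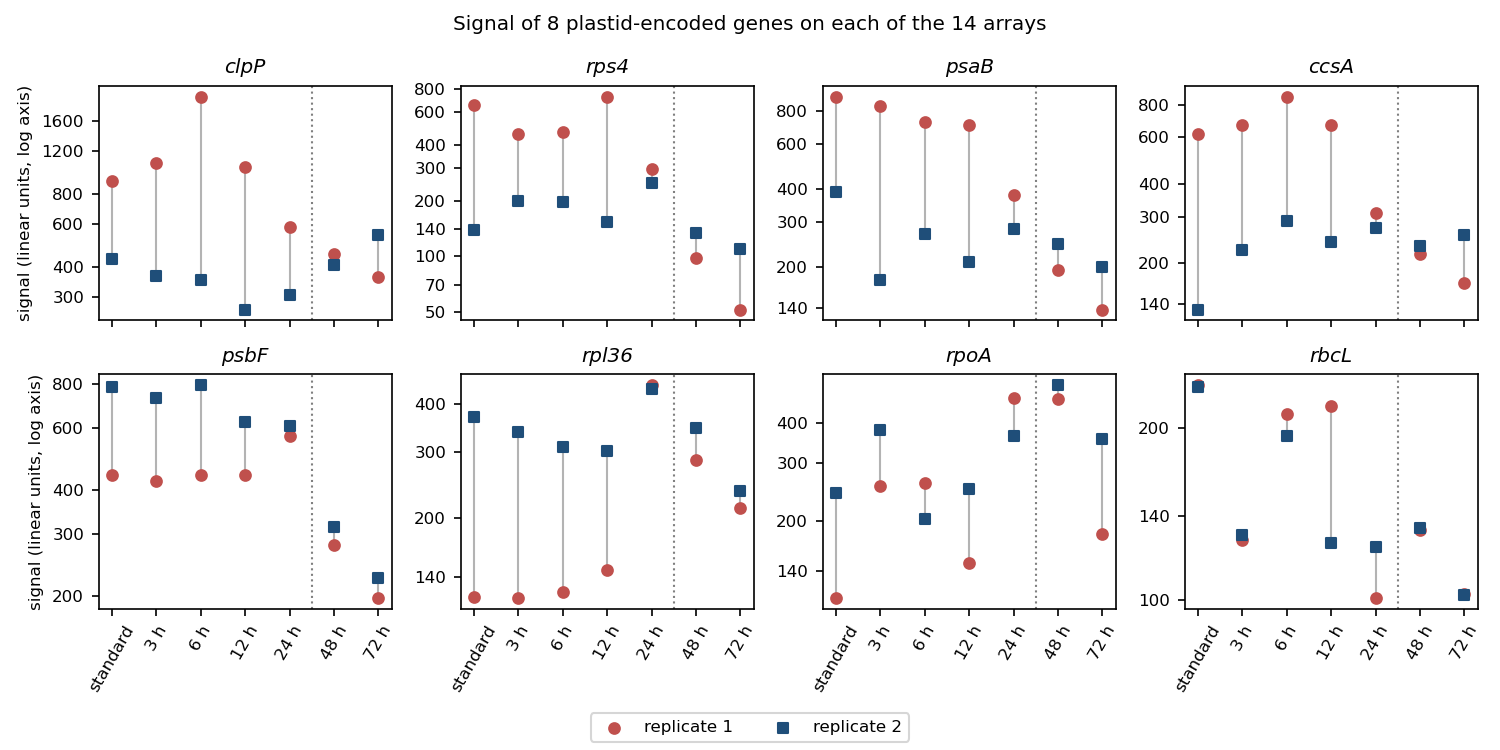
MAS5 signal (vertical axes, logarithmic) of 8 plastid-encoded genes on each of the 14 arrays, by group (horizontal axis), with replicate 1 as red circles and replicate 2 as blue squares joined by a line; the dotted line separates the 2 sets of arrays. For clpP, rps4, psaB and ccsA replicate 1 lies above replicate 2 in every group up to 24 h, for psbF below it, and for psaB, ccsA, psbF and rpl36 the replicates lie closer together from 24 h on.

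The fit gave each gene 1 spread over all 7 groups, so the wide early gaps entered the precision of every comparison. Replicates at 24, 48 and 72 h lay closer, at median gaps of 0.23, 0.33 and 0.35, but their comparisons carried the same standard error. The standard error of a log2 difference had a median of 0.38 over the members and 0.23 over all tested probe sets. It ran from 0.22 for ndhC to 0.62 for clpP, and for 35 of 47 members (74.5%) it exceeded 0.32, the 90th percentile over all tested probe sets.

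Photosystem II, the water-splitting complex, had 15 members, of which 11 were tested. None was called at 24 h, 3 were lower at 48 h and 6 were lower at 72 h. The class median was 0.00, -0.59 and -1.10 at these times. psbA (ArthCp002), a reaction-centre core protein, gave 168 and 82.5 on standard medium, 61.4 and 54.5 at 3 h, 119 and 56.0 at 6 h, 125 and 90.1 at 12 h, 77.6 and 52.6 at 24 h, 45.5 and 34.5 at 48 h, and 41.1 and 36.1 at 72 h. Every 48 h and 72 h array lay below both standard arrays, and standard replicate 1 was the highest array of the course. The differences from standard medium were -1.27 ± 0.34 (SE, adjusted p = 0.00745) at 48 h and -1.30 ± 0.34 (SE, adjusted p = 0.00541) at 72 h. Without standard replicate 1 they were -0.82 and -0.85, with adjusted p of 0.141 and 0.114, and without 48 h replicate 2 the 48 h value was -1.13 (adjusted p = 0.0723).

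The neighbouring genes psbE, psbF, psbL and psbJ encode small membrane subunits of the same complex, psbE and psbF together holding its cytochrome haem. psbF (ArthCp038) gave 441 and 781 on standard medium, 425 and 728 at 3 h, 443 and 793 at 6 h, 441 and 624 at 12 h, 570.3 and 608 at 24 h, 280.3 and 314 at 48 h, and 198 and 225 at 72 h. The 4 later arrays lay below all 10 earlier ones, and replicate 2 was the higher in every group. Its log2 differences were -0.95 ± 0.28 (SE, adjusted p = 0.015) at 48 h, -1.41 ± 0.28 (SE, adjusted p = 0.000623) at 72 h and, between 24 and 48 h, -0.95 ± 0.28 (SE, adjusted p = 0.0191). The signal of psbJ (ArthCp036) was 168 and 196 on standard medium, 142 and 180.2 at 3 h, 149.8 and 170.2 at 6 h, 149 and 222 at 12 h, 264 and 242 at 24 h, 98.9 and 87.8 at 48 h, and 73.6 and 78.5 at 72 h. The 24 h arrays were the highest and the 4 later arrays the lowest, without overlap. The differences of psbJ were -0.86 ± 0.22 (SE, adjusted p = 0.00603) at 48 h, -1.10 ± 0.22 (SE, adjusted p = 0.000644) at 72 h and, between 24 and 48 h, -1.30 ± 0.22 (SE, adjusted p = 0.000229). psbE (ArthCp039) had 277 and 316 on standard medium, 257 and 440.0 at 3 h, 151 and 298 at 6 h, 189 and 384 at 12 h, 416 and 280.3 at 24 h, 212 and 179 at 48 h, and 114 and 146 at 72 h. Both 72 h arrays lay below the 12 others, and the 72 h difference was -1.10 ± 0.32 (SE, adjusted p = 0.0102). psbL (ArthCp037) was not called, at 0.69, 0.03 and 0.02 at 24, 48 and 72 h.

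Single arrays decided some of these calls. The 48 h call of psbF was lost without standard replicate 2 (-0.55, adjusted p = 0.229) or 48 h replicate 1 (-0.87, adjusted p = 0.0972), and that of psbJ without 48 h replicate 2 (-0.78, adjusted p = 0.0595). The 72 h call of psbE was lost without standard replicate 2 (-1.02, adjusted p = 0.062) or 72 h replicate 1 (-0.95, adjusted p = 0.0904). Between 24 and 48 h psbF was not called without any 1 of the 24 h and 48 h arrays, at -0.87 to -1.03 and adjusted p of 0.0633 to 0.121. The 72 h calls of psbF and psbJ held whichever array was left out.

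The remaining photosystem II genes fell at 72 h or were not called. psbC (ArthCp018), an inner antenna protein, gave 143 and 118 on standard medium, 66.4 and 35.6 at 3 h, 75.7 and 136 at 6 h, 134 and 43.4 at 12 h, 92.1 and 73.2 at 24 h, 44.7 and 82.6 at 48 h, and 43.4 and 60.3 at 72 h, and its gene span overlaps that of psbD. Both arrays of the 3, 24, 48 and 72 h groups lay below both standard arrays, and the 72 h difference was -1.12 ± 0.38 (SE, adjusted p = 0.0287). The signal of psbK (ArthCp005), a small core subunit, was 288 and 223 on standard medium, 239 and 68.3 at 3 h, 268 and 84.5 at 6 h, 186 and 109 at 12 h, 182 and 155 at 24 h, 109 and 163 at 48 h, and 90.6 and 106 at 72 h, with -1.24 ± 0.43 (SE, adjusted p = 0.0292) at 72 h. Both its 72 h arrays were below both standard arrays but above replicate 2 at 3 h and 6 h. Neither call held without any 1 standard or 72 h array, the differences then being -0.94 to -1.30 for psbC and -1.07 to -1.41 for psbK, at adjusted p of 0.0542 to 0.174. Without the filter neither was called (adjusted p of 0.0702 for psbC and 0.0719 for psbK), nor was psbK without the trend or with the robust prior (adjusted p of 0.057 and 0.08).

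psbZ (ArthCp019), a small peripheral subunit, passed the F test (adjusted p = 0.05) and no single comparison, at 0.12, -0.55 and -0.69 at 24, 48 and 72 h. Its signal was 94.9 and 140.1 on standard medium, 96.3 and 162 at 3 h, 149.9 and 131 at 6 h, 90.6 and 69.7 at 12 h, 168 and 94.7 at 24 h, 66.5 and 81.5 at 48 h, and 57.0 and 74.9 at 72 h. The 4 later arrays and both 12 h arrays lay below both standard arrays. The other small subunits were called in no comparison: psbH stood at -0.35, -0.59 and -0.64 at 24, 48 and 72 h. psbI was at -0.08, -0.15 and -0.56 at the same times, and psbM at 0.45, 0.30 and -0.85. Both 72 h arrays of psbM, psbH and psbI lay below both standard arrays.

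Photosystem I, which hands electrons to ferredoxin, had 5 tested genes of 7, and 1 of them was called against standard medium. psaB (ArthCp021), a core protein that holds the reaction centre with psaA, gave 910.2 and 389.5 on standard medium, 837 and 179 at 3 h, 726 and 269 at 6 h, 707 and 209 at 12 h, 380.0 and 282 at 24 h, 195 and 245 at 48 h, and 138 and 201 at 72 h. Replicate 1 was 1.19 to 2.13 higher than replicate 2 on the log2 scale in the first 4 groups, and the 72 h arrays lay below both standard arrays. The 72 h difference was -1.75 ± 0.56 (SE, adjusted p = 0.0192). It was -1.15 without standard replicate 1 and -1.50 without 72 h replicate 1, with adjusted p of 0.217 and 0.127, and it was not called without the filter or with the robust prior (adjusted p of 0.0527 and 0.150). psaA, its neighbour, was at -0.93, -0.42 and -0.37 at 24, 48 and 72 h and was not called.

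The small photosystem I subunits psaI and psaJ were not called either, at -0.20, 0.12 and -0.16 for psaI and 0.57, 0.06 and 0.00 for psaJ at 24, 48 and 72 h. ycf4 (ArthCp033), a photosystem I assembly factor, passed the F test (adjusted p = 0.0294) with 256 and 224 on standard medium, 163 and 49.98 at 3 h, 193 and 178 at 6 h, 210.4 and 127 at 12 h, 190.3 and 153 at 24 h, 229 and 417 at 48 h, and 178 and 283 at 72 h. Its lowest array was 3 h replicate 2 and its highest 48 h replicate 2. It was called at no single time, the largest difference from standard medium being -1.23 ± 0.36 (SE, adjusted p = 0.343) at 3 h.

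In the cytochrome b6f complex, which links the photosystems, 2 of the 3 genes tested in its class were lower at 72 h. petA (ArthCp035), cytochrome f, gave 817 and 678 on standard medium, 988 and 661 at 3 h, 911 and 1004 at 6 h, 878 and 384 at 12 h, 1150.5 and 1049 at 24 h, 496 and 622 at 48 h, and 296 and 582 at 72 h. Both 72 h arrays lay below both standard arrays, and at 24 h both lay above them. The differences were -0.81 ± 0.31 (SE, adjusted p = 0.0434) at 72 h against standard medium and -0.96 ± 0.31 (SE, adjusted p = 0.0262) between 24 and 48 h. petB (ArthCp053), cytochrome b6, had 2121 and 997 on standard medium, 1719.6 and 894 at 3 h, 1798 and 928 at 6 h, 2086 and 882 at 12 h, 956 and 903 at 24 h, 831 and 732 at 48 h, and 653 and 706 at 72 h. Replicate 1 was about as high at 12 h as on standard medium, and all arrays from 24 h on lay below both standard arrays. The 72 h difference was -1.08 ± 0.37 (SE, adjusted p = 0.0266). ccsA, the third tested gene, was at -0.01, -0.36 and -0.46 at 24, 48 and 72 h.

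Neither 72 h call of this class held without standard replicate 1 or 72 h replicate 1. For petA the difference was then -0.68 and -0.35 (adjusted p = 0.201 and 0.500), and for petB it was -0.54 and -1.03 (adjusted p = 0.356 and 0.116). petA was also not called without standard replicate 2, 6 h replicate 2 or either 24 h array, at -0.81 to -0.95 and adjusted p of 0.0501 to 0.0694, nor petB without 72 h replicate 2 (-1.14, adjusted p = 0.0767). The call of petA between 24 and 48 h was lost without any 1 of the 24 h and 48 h arrays, at -0.81 to -1.12 and adjusted p of 0.0557 to 0.184. Without the filter, without the trend and with the robust prior neither 72 h fall was called, at adjusted p of 0.0861, 0.0855 and 0.0678 for petA and 0.0632, 0.063 and 0.119 for petB. The petA call between 24 and 48 h was lost without the filter or the trend (adjusted p of 0.0625 and 0.0628).

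The ATP synthase had 5 tested genes of 6, and the 2 that passed a test encode subunits of its catalytic head and have overlapping gene spans. atpB (ArthCp029), the beta subunit, gave 2381 and 1583 on standard medium, 1823 and 1085 at 3 h, 1981 and 1394 at 6 h, 1949 and 822 at 12 h, 1987 and 1762 at 24 h, 1519 and 1651 at 48 h, and 1093 and 1106 at 72 h. Both 72 h arrays lay below both standard arrays, and replicate 2 at 12 h was the lowest of all. The 72 h difference was -0.81 ± 0.30 (SE, adjusted p = 0.0394), which was -0.52 (adjusted p = 0.308) without standard replicate 1 and was also not called without 72 h replicate 1 or 2 (-0.80 and -0.82, adjusted p = 0.131 and 0.118). It was not called without the filter, without the trend or with the robust prior either (adjusted p of 0.083, 0.0838 and 0.0772). atpE (ArthCp028), the epsilon subunit, had 1361 and 1537 on standard medium, 1452 and 885 at 3 h, 2205 and 1823 at 6 h, 3747 and 747 at 12 h, 2193 and 1149 at 24 h, 899 and 551 at 48 h, and 589 and 693 at 72 h. It passed the F test (adjusted p = 0.031), with all 4 later arrays below both standard arrays and 12 h replicate 1 the highest.

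The differences of atpE from standard medium were -1.02 ± 0.45 (SE, adjusted p = 0.0954) at 48 h and -1.16 ± 0.45 (SE, adjusted p = 0.0527) at 72 h. The alpha subunit gene atpA stood at -0.43, 0.02 and -0.20 at 24, 48 and 72 h. The membrane-sector genes atpF and atpH were at -0.76, 0.15 and -0.44 and at -0.72, 0.20 and 0.09. None of the 3 was called at any time.

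No gene of the NDH complex, which takes part in electron flow around photosystem I, was called in any comparison. Of its 10 members 4 were tested. ndhC (ArthCp027), a membrane subunit with the smallest standard error of all members, gave 137 and 138 on standard medium, 109 and 116 at 3 h, 144 and 216 at 6 h, 179 and 132 at 12 h, 217 and 224 at 24 h, 146 and 175 at 48 h, and 163 and 178 at 72 h. Both its 24 h arrays were higher than every other array, and the 24 h difference was 0.62 ± 0.22 (SE, adjusted p = 0.164). ndhA and ndhD, also membrane subunits, were at -0.46, 0.29 and -0.12 and at -0.63, -0.08 and -0.19 at 24, 48 and 72 h. ndhI, an iron-sulfur subunit, was at -0.21, 0.07 and -0.08 at these times, and its arrays ran from 266 to 756. The standard errors of these differences were 0.22 to 0.54, so that a value near 0 does not show that a gene was unaffected.

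rbcL (ArthCp030), the large subunit of the carbon-fixing enzyme Rubisco, was the only member called at 24, 48 and 72 h. It gave 238 and 236 on standard medium, 127 and 129.7 at 3 h, 212 and 194 at 6 h, 218 and 126 at 12 h, 101 and 124 at 24 h, 133 and 134 at 48 h, and 102 and 102 at 72 h. The standard replicates nearly coincided and were the 2 highest arrays, so that every other group lay below them without overlap. The differences from standard medium were -0.81 ± 0.23 (SE, adjusted p = 0.322) at 3 h, -0.99 ± 0.23 (SE, adjusted p = 0.0154) at 24 h, -0.76 ± 0.23 (SE, adjusted p = 0.0156) at 48 h and -1.10 ± 0.23 (SE, adjusted p = 0.000862) at 72 h. At 6 h and 12 h they were -0.21 and -0.47, and replicate 1 at 12 h stood apart from replicate 2. The 24 h call did not need the later arrays: a fit of the 10 earlier arrays alone gave rbcL an adjusted p of 0.039 at 24 h.

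The calls of rbcL at 24 and 48 h were lost without any 1 standard array or array of that time, while the size of the difference changed little. At 24 h it was then -0.86 to -1.11 (adjusted p 0.0525 to 0.18) and at 48 h -0.75 to -0.77 (adjusted p 0.0563 to 0.0816). The 72 h difference was -1.09 to -1.10 whichever array was left out, and stayed called. The 3 genes grouped with rbcL as metabolism, envelope and protease were called nowhere. accD, a subunit of the acetyl-CoA carboxylase of fatty acid synthesis, was at -0.44, 0.28 and -0.05 at 24, 48 and 72 h. cemA, an inner envelope protein, was at 0.02, -0.11 and -0.41, and clpP at -0.54, -0.53 and -0.48.

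Of the ribosomal protein genes 1 was higher at 24 h, 1 lower at 48 h and 2 lower at 72 h. rps3 (ArthCp061), a small-subunit protein, rose at 24 h. Its signal was 253 and 305 on standard medium, 389.8 and 437 at 3 h, 518 and 306 at 6 h, 528 and 376 at 12 h, 584 and 515 at 24 h, 275 and 362 at 48 h, and 255 and 302 at 72 h, and its gene span overlaps that of rpl22. Every array from 3 h to 24 h lay above both standard arrays, and both 72 h arrays lay within their range. The differences were 0.94 ± 0.23 (SE, adjusted p = 0.0232) at 24 h, 0.18 at 48 h and 0.00 at 72 h, and -0.77 ± 0.23 (SE, adjusted p = 0.0207) from 24 to 48 h. A fit of the 10 earlier arrays alone gave the 24 h rise an adjusted p of 0.0388, and it was not called without the filter (adjusted p = 0.0529) or the trend (adjusted p = 0.0615). The 24 h call was lost without standard replicate 1, 24 h replicate 1 or 24 h replicate 2 (0.81, 0.86 and 1.03, adjusted p of 0.198, 0.201 and 0.0941).

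rpl33 (ArthCp043), a large-subunit protein, and rps18 (ArthCp044), a small-subunit protein, are neighbours, and both were low in the later groups. rpl33 gave 344 and 283 on standard medium, 393 and 235 at 3 h, 388 and 271 at 6 h, 627 and 216 at 12 h, 281 and 307 at 24 h, 129.5 and 155 at 48 h, and 87.9 and 149 at 72 h. The 4 later arrays lay below all 10 earlier arrays. The differences were -1.06 ± 0.34 (SE, adjusted p = 0.0236) at 48 h, -1.33 ± 0.34 (SE, adjusted p = 0.00493) at 72 h and, between 24 and 48 h, -0.98 ± 0.34 (SE, adjusted p = 0.0456). rps18 had 67.0 and 93.4 on standard medium, 146 and 91.7 at 3 h, 137 and 122 at 6 h, 124 and 80.5 at 12 h, 104 and 67.5 at 24 h, 38.2 and 44.4 at 48 h, and 39.8 and 58.2 at 72 h. It passed the F test (adjusted p = 0.00538), its 4 later arrays again lying below all earlier ones, and its 48 h difference was -0.74 ± 0.30 (SE, adjusted p = 0.0665). rps19 (ArthCp063) gave 233 and 231 on standard medium, 343 and 237 at 3 h, 293 and 208 at 6 h, 428 and 271 at 12 h, 393 and 310.2 at 24 h, 132 and 194 at 48 h, and 109 and 205 at 72 h and passed the F test (adjusted p = 0.00873). Its 4 later arrays were the lowest of all, and the difference between 24 and 48 h was -1.05 ± 0.28 (SE, adjusted p = 0.00945).

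Several arrays decided the ribosomal calls. For rpl33 the 48 h call was lost without standard replicate 1, 48 h replicate 1 or 48 h replicate 2 (-0.93, -0.95 and -1.17, adjusted p of 0.134, 0.138 and 0.0608), and the 72 h call without 72 h replicate 1 (-0.998, adjusted p = 0.0876). Its call between 24 and 48 h was lost without any 1 of the standard, 24 h and 48 h arrays, at -0.86 to -1.09 and adjusted p of 0.0505 to 0.215. Without the filter the 48 h call of rpl33 (adjusted p = 0.0563) and that between 24 and 48 h (adjusted p = 0.104) were lost, the latter also without the trend, with the robust prior and with 64 added to the signal (adjusted p of 0.0851, 0.0669 and 0.0505). The call of rps19 between 24 and 48 h was lost without 24 h replicate 1 or 48 h replicate 1 (-0.89 and -0.80, adjusted p of 0.103 and 0.137). The call of rps3 was lost without either 24 h array or 48 h replicate 1 (-0.58 to -0.85, adjusted p of 0.0574 to 0.211).

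rps4 (ArthCp024), a small-subunit protein, had 660.2 and 138 on standard medium, 461 and 199.8 at 3 h, 471 and 197 at 6 h, 729.9 and 153 at 12 h, 295 and 249 at 24 h, 98.1 and 134 at 48 h, and 51.5 and 109.7 at 72 h. All 4 later arrays lay below both standard arrays, 72 h replicate 1 being the lowest of the 14, and replicate 1 was far above replicate 2 in the first 4 groups. Its 72 h difference, -1.81 ± 0.60 (SE, adjusted p = 0.0234), was the largest fall of any member, with a standard error among the 3 largest. It was -0.74 without standard replicate 1 and -1.36 without 72 h replicate 1, at adjusted p of 0.414 and 0.192, and it was not called without the filter, without the trend or with the robust prior (adjusted p of 0.0625, 0.0559 and 0.164). The other ribosomal genes were called in no comparison. At 24, 48 and 72 h rpl14 stood at 0.46, 0.82 and 0.32, rpl16 at -0.08, 0.41 and 0.15 and rpl22 at 0.86, 0.27 and 0.19. The values of rpl32, rpl36 and rps2 at the same times were 0.37, -0.28 and -0.35, then 0.99, 0.51 and 0.05, then 0.13, 0.54 and 0.33.

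Of the transcription and splicing genes, rpoA, the alpha subunit of the plastid-encoded RNA polymerase, was the only member called higher at 48 h. rpoA (ArthCp055) gave 116 and 244 on standard medium, 256 and 379.5 at 3 h, 261 and 203 at 6 h, 149 and 249.8 at 12 h, 476 and 365 at 24 h, 472 and 522 at 48 h, and 182 and 357 at 72 h. The arrays of 3, 24 and 48 h lay above both standard arrays, and at 72 h the replicates stood apart and overlapped them. The differences were 1.23 ± 0.32 (SE, adjusted p = 0.0328) at 24 h, 1.47 ± 0.32 (SE, adjusted p = 0.00138) at 48 h and 0.55 ± 0.32 (SE, adjusted p = 0.189) at 72 h. A fit of the 10 earlier arrays alone gave the 24 h rise an adjusted p of 0.0324, and it was not called without the filter (adjusted p = 0.0915) or the trend (adjusted p = 0.0909). Without standard replicate 1, 24 h replicate 1 or 24 h replicate 2 it was 0.74, 1.04 and 1.41 (adjusted p of 0.445, 0.289 and 0.0934), while the 48 h rise stayed called, at 0.98 to 1.96.

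The other tested polymerase subunits were not called. rpoC1 was at -0.90, -0.55 and -0.73 at 24, 48 and 72 h, rpoC2 was at -0.57, -0.70 and -0.54, and rpoB was below the filter. matK (ArthCp003), a maturase that acts in splicing of plastid introns, gave 460.3 and 196 on standard medium, 429 and 124 at 3 h, 439.5 and 113 at 6 h, 573 and 143 at 12 h, 214 and 216 at 24 h, 191 and 152 at 48 h, and 84.2 and 95.5 at 72 h. The 72 h arrays were the 2 lowest of the 14, and replicate 1 was far above replicate 2 in the first 4 groups. The 72 h difference was -1.59 ± 0.56 (SE, adjusted p = 0.0327). It was -1.01, -1.51 and -1.67 without standard replicate 1, 72 h replicate 1 and 72 h replicate 2, at adjusted p of 0.292, 0.129 and 0.0894. The call was also lost without the filter, without the trend and with the robust prior (adjusted p of 0.0808, 0.0707 and 0.187).

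Placed in genome order, neighbouring genes differed alike in places. The units were drawn after the values were seen and are described without a test. The 4 genes from psbE to psbJ all had replicate 2 higher on average over the 5 earlier groups, at -0.22 to -0.59 on the log2 scale, and their median difference from standard medium was 0.32 at 24 h, -0.71 at 48 h and -1.10 at 72 h. psbL departed from this median, at 0.02 at 72 h. The 7 genes of the ribosomal protein cluster that ends with rpoA (rps19, rpl22, rps3, rpl16, rpl14, rpl36 and rpoA) had medians of 0.86, 0.41 and 0.15. At 48 h they ran from rps19, whose arrays lay below both standard arrays, to rpoA at 1.47. Both genes called higher at 24 h belong to this cluster, and the replicate differences of the cluster had mixed signs, 3 with replicate 1 and 4 with replicate 2 higher.

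Other units had replicate 1 higher in each tested gene, on average over the 5 earlier groups. This was not particular to them, since replicate 1 was higher in all of the standard, 3, 6 and 12 h groups for 27 of 47 members. It also held for rpoC1 and rpoC2, psbH and petB, atpB and atpE, rpl33 and rps18, and rpl32 and ccsA. For rps2, atpH, atpF and atpA the replicate difference was 0.67 to 1.33, and the medians at 24, 48 and 72 h were -0.57, 0.18 and -0.05. For ndhA, ndhI and ndhD it was 0.53 to 1.25, with medians of -0.46, 0.07 and -0.12. For psaA and psaB it was 0.64 and 1.36, with medians of -0.88, -0.90 and -1.06. The 72 h median stands between unlike genes, psaB being called at -1.75 and psaA not called. The genes psaI, ycf4, cemA and petA, which follow one another, had 0.05 to 1.09 and medians of -0.09, 0.00 and -0.28. Members of 1 unit may share transcripts, and the 3 pairs psbD and psbC, atpE and atpB, and rps3 and rpl22 have overlapping gene spans, so they are not independent measurements.

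**Figure D4:**
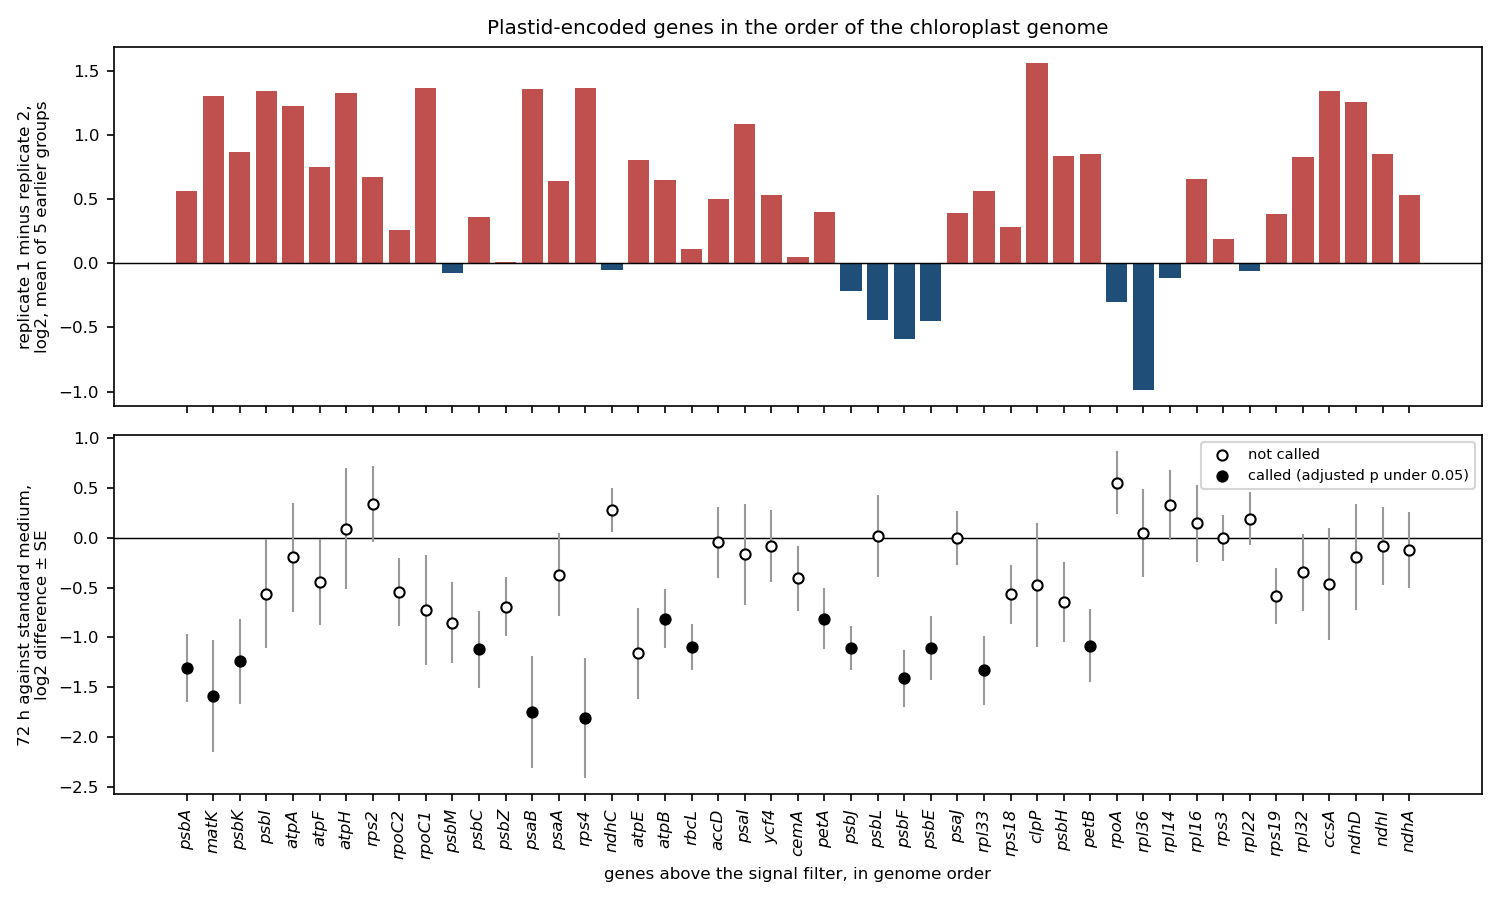
The 47 tested plastid-encoded genes in genome order (horizontal axes), with replicate 1 minus replicate 2 as the mean of the 5 earlier groups (upper panel, log2 scale, bars from 0) and the difference of 72 h from standard medium ± SE (lower panel, log2 scale, filled where called). The run from psbJ to psbE has negative replicate differences of -0.22 to -0.59, and rpl36 the lowest at -0.99, while clpP has the highest at 1.56.

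The 22 members below the filter were dim by their mean log2 signal, although some arrays of several, such as psbD and rps15, exceeded the filter level. Their highest signal on any array was 104, for rps15, a small-subunit protein. Among photosystem II genes the lowest, median and highest of the 14 signals were 10.03, 54.1 and 90.9 for psbD, a reaction-centre core protein. They were 1.27, 31.4 and 75.4 for psbB, an inner antenna protein. The small proteins psbT and psbN had medians of 7.20 and 14.4. The median was 25.3 for psaC, the subunit with the terminal iron-sulfur clusters of photosystem I, and 23.2 for the assembly factor ycf3.

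For petD, a cytochrome b6f subunit, the median was 15.2, and for the small subunits petG, petL and petN it was 17.6, 24.1 and 10.5. The membrane-sector gene atpI of the ATP synthase had 8.49. The NDH genes ndhE, ndhF, ndhG, ndhH, ndhJ and ndhK had medians of 14.3, 2.25, 12.2, 16.3, 9.88 and 19.5. Those of rps14, rps15, rps16 and rpl20 were 21.3, 39.8, 20.9 and 29.8, and that of rpoB, the beta subunit of the polymerase, was 16.1. None of them was tested in the fit used here.

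Nuclear genes that act with these members were examined from lists of known partners. Of 33 nuclear genes for plastid ribosomal proteins, 9 were measured and tested. None was called at 3, 6, 12 or 24 h, 5 were lower at 48 h and 7 at 72 h, with list medians of -0.89 and -0.9995. The 3 largest falls at 48 h were PRPS6 (-1.47 ± 0.27, adjusted p = 0.00033), PRPL3 (-1.42 ± 0.18, adjusted p = 4.88e-06) and PRPL17 (-1.01 ± 0.23, adjusted p = 0.00186), with SE. At 72 h they were PRPL3 (-1.96 ± 0.18, adjusted p = 4.78e-08), PRPS6 (-1.74 ± 0.27, adjusted p = 4.41e-05) and PRPL34 (-1.29 ± 0.28, adjusted p = 0.00113). The tested plastid-encoded ribosomal genes had class medians of 0.34 (large subunit) and -0.49 (small subunit) at 48 h, and of 0.10 and -0.57 at 72 h.

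Of 18 nuclear genes for NDH subunits 1 was tested, NDHS, at -2.39 ± 0.39 (SE, adjusted p = 8.84e-05) at 48 h and -2.07 ± 0.39 (SE, adjusted p = 0.000323) at 72 h. Among 3 nuclear genes of plastid cytochrome c maturation, which act with ccsA, 2 were tested. CCDA was lower at 48 h (-0.83 ± 0.28, SE, adjusted p = 0.031) and at 72 h (-0.73 ± 0.28, SE, adjusted p = 0.0489). CCS1 was not called, at -0.24 and -0.07. None of the 8 nuclear genes for plastid sigma factors and phage-type polymerases, and none of the 12 for proteins associated with the plastid-encoded polymerase, was tested. The green tissue markers RCA (-2.33 ± 0.28 at 48 h and -2.70 ± 0.28 at 72 h, SE) and LHCB4.1 (-1.88 ± 0.23 and -2.17 ± 0.23, SE) were lower at the same times, with adjusted p of at most 2.54e-06.

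Genes of the mitochondrial genome, whose mRNAs also lack stable poly(A) tails as a rule, gave a second organelle for comparison. Of 23 probe sets matched by gene symbol, 5 were tested and none was called against standard medium. Their medians from 3 to 72 h were -0.25, -0.11, -0.51, -0.44, -0.32 and -0.30. The 5 tested genes had replicate differences like those of the plastid members. Replicate 1 was higher in 5 of 5 in each of the standard, 3, 6 and 12 h groups, with medians of 0.54, 0.76, 0.54 and 0.94, and in 4 of 5 at 24 h. At 48 h and 72 h it was higher in 1 and 0 of 5, with medians of -0.85 and -0.67. The 18 below the filter did not follow this closely. Replicate 1 was higher in 12, 10, 10 and 11 of them in the first 4 groups. It was higher in 12 at 24 h, 12 at 48 h and 6 at 72 h. Of these 18, 2 had replicate 1 higher in all of the first 4 groups (11.1%), as did 5 of the 22 plastid members below the filter (22.7%).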

How the data were processed

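The deposited table holds 1 intensity value per probe set and array, a MAS5 signal on a linear scale; the MAS5 step is named in the submitters' processing notes, and its version and settings are not given in the sources used here. Per the labels, total RNA of about 320 roots per replicate was amplified with the one-cycle protocol and labelled with biotin. All arrays had a 2%-trimmed mean of 250.0 and medians of 84.5 to 94.9, so differences are relative to the rest of each array; with 2 arrays a group, the number of arrays limits the precision.

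From these values, log2(signal + 16) was fitted with limma 3.58.1 in R 4.3.3, 1 mean per group over all 14 arrays, lmFit and eBayes with a trended prior and 7 residual degrees of freedom. The 64 control probe sets and the lowest 40% of probe sets by mean were left out; p-values were adjusted by Benjamini-Hochberg over the 13648 tested in each comparison. The fit was first tested on simulated data. Alternatives covered the pseudocount, filter, scaling, prior, arrays used, replicate block and each array left out. Every member is named; statistics are given for those called against standard medium or by the F test, and for partner lists the 3 largest rises and falls at 48 and 72 h. Members and lists were chosen with earlier results of these data known. The mitochondrial list was matched by symbol, not by locus tag as planned. The labels put all harvests on the sixth day, which 48 and 72 h after a 5-day growth exceed, so ages at those times are not settled. The labels call the replicates biological without naming separate cultures; p-values measure the spread between these samples, which may be partly technical.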

Additional observations from a re-analysis of the deposited data

How the results depend on the processing

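Counts of members called moved with the setting, and no call of a single member changed direction: of 696 alternatives for 29 single calls, 592 kept the call and 104 lost it. At 24 h, 3 members were called, 1 when no probe set was filtered out and 1 under a prior without trend. At 48 h, 6 were called and 12 with a fit of only the 4 arrays compared; between 24 and 48 h that fit called 19, against 6. At 72 h, 14 were called, 8 when no probe set was filtered out (6 of the 14 falls and 2 rises of dim members, petN and rps14), 8 under a prior without trend and 7 under a robust prior. The F test called 14, 9 under a prior without trend and 0 in the 10 arrays of the earlier set. Leaving out each array in turn gave 0 to 4 members at 24 h, 2 to 10 at 48 h, 5 to 15 at 72 h, 1 to 9 between 24 and 48 h, 0 to 1 at 12 h and between 12 and 24 h, and 10 to 20 by the F test. The other comparisons stayed at 0. Which property of a setting moved a count was not tested. The shares of all tested probe sets called under these alternatives are not given here. A larger or smaller count of members therefore cannot be told apart from a setting that calls more or fewer probe sets of any kind.

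The labels do not say that replicate numbers pair samples: over all tested probe sets, replicate deviations of 2 groups correlated at -0.14 to 0.27, above 0.1 in 4 of 21 pairs. With the replicate number as a block, 3 members were called at 24 h, 9 at 48 h, 15 at 72 h, 7 between 24 and 48 h and 19 by the F test. The shares of all tested probe sets called with the block are not given here either. In that fit the replicate term itself called 0 members (lowest adjusted p = 0.175), 27 having an unadjusted p below 0.05 (57.4%, against 9.15% of all tested). That term is 1 difference over all 7 groups. The members' median difference was 0.17 to 1.03 up to 24 h but -0.27 and -0.33 at 48 and 72 h. Opposite directions offset each other in the term, so it does not measure the difference in the earlier groups alone. Signals near background limit the 22 dim members.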

Other observations

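Probe sets of plastid genes present in 2 copies were not members, because the annotation pairs them with 2 gene entries. Of 8 such probe sets, for 7 symbols, those of rpl2, rpl23, rps7, ycf1 and 1 of 2 for rps12 were above the filter. At 72 h rpl2 (-0.80 ± 0.28, SE, adjusted p = 0.0285) and rpl23 (-0.67 ± 0.20, SE, adjusted p = 0.0139), both large-subunit ribosomal proteins, were lower than on standard medium in limma. rpl2 gave 2131 and 1662 on standard medium and 862 and 1331 at 72 h, and rpl23 gave 442 and 353 and then 274 and 215, so that the groups did not overlap. The probe sets of rps7, rps12 and ycf1 were not called at 72 h, at 0.14, 0.02 and 0.19.

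When no probe set was filtered out, a few dim members were called higher. Between 24 and 48 h these were psbB (2.11), ndhG (1.73), petN (1.24) and rps14 (1.24). Against standard medium they were ndhG at 48 h (1.36, adjusted p = 0.0339) and, at 72 h, petN (1.18, adjusted p = 0.0359) and rps14 (1.13, adjusted p = 0.0317). No signal of these 4 genes exceeded 75.4 on any array. The 24 h signals were near the floor: 6.03 and 2.28 for psbB, 4.18 and 2.25 for ndhG, 2.16 and 9.70 for petN, and 0.92 and 2.03 for rps14. Each of these comparisons crosses the 2 sets of arrays, and the share of all probe sets called without the filter is not given here.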
